A study of Mus musculus with 4 samples.

Results

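The genes described are 10 that mark or drive the mesenchymal state, measured among 19938 genes on 4 gene arrays of C57BL/6 mouse cells. They are the transcription factors Snai1, Snai2, Zeb1, Zeb2, Twist1 and Twist2, the cadherins Cdh2 and Cdh11, the intermediate filament gene Vim and the fibronectin gene Fn1. They were chosen by symbol, and for each the probe set with the highest mean level was taken; all 10 had exactly 1 probe set with that symbol alone. The arrays, 1 per group, were of mesenchymal stem cells (MSC) from femur and tibia marrow grown with basic fibroblast growth factor (bFGF) at 1 ng/ml, the same kind of MSC grown without it, osteoblasts released by enzymes from the calvariae of newborn mice, and embryonic stem (ES) cells, the last 2 being the study's controls. MSC were selected by adherence to plastic and osteoblasts were pooled from the later digestions, so both were primary cultures and not clones. No transgene or deletion is named for any group, and no growth conditions are given for the ES cells in the sources used here. The series was made to compare the effects of bFGF on marrow MSC.

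Epithelial-mesenchymal transition (EMT) is the change in which cells give up epithelial junctions and take on a motile, matrix-producing form, as in gastrulation and in the neural crest. The Snail factors (Snai1, Snai2) and the Zeb factors (Zeb1, Zeb2) are zinc finger proteins that bind E-box sequences in DNA and repress epithelial genes such as Cdh1, while the Twist factors are basic helix-loop-helix proteins that pair with E proteins. Stromal and skeletal cells, which are already mesenchymal, keep several of these factors on together with N-cadherin (Cdh2), cadherin-11 (Cdh11, also called OB-cadherin), vimentin and fibronectin.

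Levels are log2 values made by the authors with RMA, which makes the distributions of arrays alike, so a change in all transcripts of a cell would not show. Differences are on the log2 scale, first group less second. The call used is 2-fold (1 on the log2 scale) in a gene whose brighter array exceeded that array's floor, set at the median of its probe sets with 1 symbol (6.32 for MSC with bFGF, 6.29 for MSC without, 6.46 for osteoblasts and 6.46 for ES cells). All 10 genes were above the floor on all 4 arrays. With 1 array per group there was no replicate check and no test between groups. The technical spread given instead is 2 times the SD by which probe sets of the same gene disagreed on a difference. It was 0.56 for MSC with minus MSC without bFGF, 0.74 for MSC with bFGF minus osteoblasts, 0.80 for MSC without bFGF minus osteoblasts, 0.86 and 0.93 for MSC with and without bFGF minus ES cells, and 0.88 for osteoblasts minus ES cells. It holds no variation between cultures. The probe sets compared lie on the same 2 arrays, so variation that they share, such as that of labelling a whole array, is not in it either. In these cultures fewer cells of a type and less RNA per cell cannot be told apart.

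The labelled cell types were set against their markers. Of 11 measured stromal markers 9 lay above the floor in MSC with bFGF, 7 in MSC without, 11 in osteoblasts and 10 in ES cells. Of the 6 measured osteoblast markers only Col1a1 lay above the floor in osteoblasts; Sp7 and Ibsp, which define the lineage, did not. Of 9 pluripotency markers 1 lay above the floor in MSC with bFGF, 0 in MSC without, 0 in osteoblasts and 7 in ES cells. Macrophage markers lay above it for 18 of 20 in MSC with bFGF, 11 in MSC without, 19 in osteoblasts and 15 in ES cells, with median levels of 9.51, 6.54, 11.20 and 7.40.

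E-boxes are shown first, because the Snail and Zeb factors act through them. The form searched was CAGGTG and its reverse complement CACCTG, in windows from 250 bases before to 50 after the transcription start (RefSeq, GRCm38.p6). Of 27025 genes with such a window, 22.6% held it in at least 1 window, and 20.2% of all windows did. Of the 5 members with a window (Snai1, Zeb2, Twist1, Twist2 and Vim), only Snai1 held it, as CACCTG with its first base 126 bases before the start. Among the 15 genes with a window from a list of 20 epithelial genes known as targets of EMT factors, 15 did. The list was drawn up from such knowledge, so this share cannot be read against that of all genes. The sequence before the Snai1 start on the + strand (chr2:167537945-167538194) follows, with the E-box in capitals. Below it stand E-boxes, with 20 bases on each side, of target genes that were 2-fold or more lower in both MSC arrays than in ES cells. Cdh1 and Krt19 were also lower in both but had no window, so they were not searched. For each gene the E-box shown is the nearest one whose 20 flanking bases all lie before the start. Cldn6 has a further one, CAGGTG, after its start, and Cldn7 a further one, CACCTG, 97 bases before its start. Epcam has a further one, CAGGTG, 19 bases before its start, and Cldn4 and Dsp, whose E-boxes lie around the start, are not shown. They lie at chr17:23679252-23679297 (+ strand, 93 bases before the start) for the claudin Cldn6, chr11:69965344-69965389 (+ strand, 57 bases) for Cldn7, chr17:87635772-87635817 (+ strand, 187 bases) for Epcam, chr15:102027982-102028027 (+ strand, 214 bases) for the keratin Krt18 and chr15:102004428-102004473 (- strand, 111 bases) for Krt8.
Snai1: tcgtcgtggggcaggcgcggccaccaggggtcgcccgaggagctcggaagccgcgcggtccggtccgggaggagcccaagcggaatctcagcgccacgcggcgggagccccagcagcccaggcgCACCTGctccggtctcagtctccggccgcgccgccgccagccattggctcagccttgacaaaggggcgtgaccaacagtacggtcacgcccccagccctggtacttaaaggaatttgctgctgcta
Cldn6: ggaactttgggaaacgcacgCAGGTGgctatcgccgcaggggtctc
Cldn7: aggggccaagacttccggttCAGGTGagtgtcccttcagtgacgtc
Epcam: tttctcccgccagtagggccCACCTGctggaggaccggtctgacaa
Krt18: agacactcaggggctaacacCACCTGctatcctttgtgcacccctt
Krt8: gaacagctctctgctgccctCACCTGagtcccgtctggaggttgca
A match describes these letters only and says nothing of binding in these cells.

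Among the Snail factors, Snai1 and Snai2 had different orders over the arrays. Snai1, a repressor of Cdh1 that acts early in EMT, stood at 6.74 in MSC with bFGF, 6.72 in MSC without, 7.80 in osteoblasts and 7.70 in ES cells. Both MSC arrays were low and both control arrays high, with gaps inside each pair of 0.03 and 0.10 that were within the technical spread. The share of all genes with such a split was not counted. Snai2 (Slug), a factor of neural crest and skeletal mesenchyme, stood at 9.14, 9.39, 9.11 and 6.97 in the same order. It was high in MSC and osteoblasts, whose arrays lay within 0.28 of each other, and low in ES cells. Snai2 was 4.49-fold higher in MSC with bFGF than in ES cells and 5.35-fold higher in MSC without bFGF than in ES cells.

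Among the Zeb factors, Zeb2 separated ES cells from the rest and Zeb1 separated few arrays. Zeb2, which is also expressed in macrophages, stood at 8.40 in MSC with bFGF, 8.55 in MSC without, 8.83 in osteoblasts and 7.29 in ES cells. The ES array was the low one, and the other 3 lay within 0.43 of each other, inside the technical spread. Between the MSC arrays Zeb2 differed by -0.15 and the macrophage markers by a median of 2.77, and the part of macrophages in the Zeb2 levels was not tested. Zeb1 stood at 7.15, 7.71, 8.36 and 7.56 in the same order. It was highest in osteoblasts and lowest in MSC with bFGF, 2.32-fold lower there than in osteoblasts, and neighbours in that order lay within the technical spread of each other. MSC with bFGF minus MSC without was -0.56, just past that spread.

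The Twist factors also went apart. Twist1, which keeps mesenchymal progenitors from maturing and is needed for skull sutures, stood at 9.20 in MSC with bFGF, 9.59 in MSC without, 8.89 in osteoblasts and 8.64 in ES cells. MSC without bFGF was the highest array and was 1.94-fold above ES cells, the only pair for this gene past the technical spread. Twist2 (Dermo1), its close relative of dermis and bone precursors, stood at 7.08, 7.35, 6.76 and 9.19 in the same order. It was high in ES cells and low in all 3 other arrays, which lay within 0.59 of each other. Twist2 differed by -2.11, -1.85 and -2.44 in MSC with bFGF, MSC without bFGF and osteoblasts minus ES cells.

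**Figure D1:**
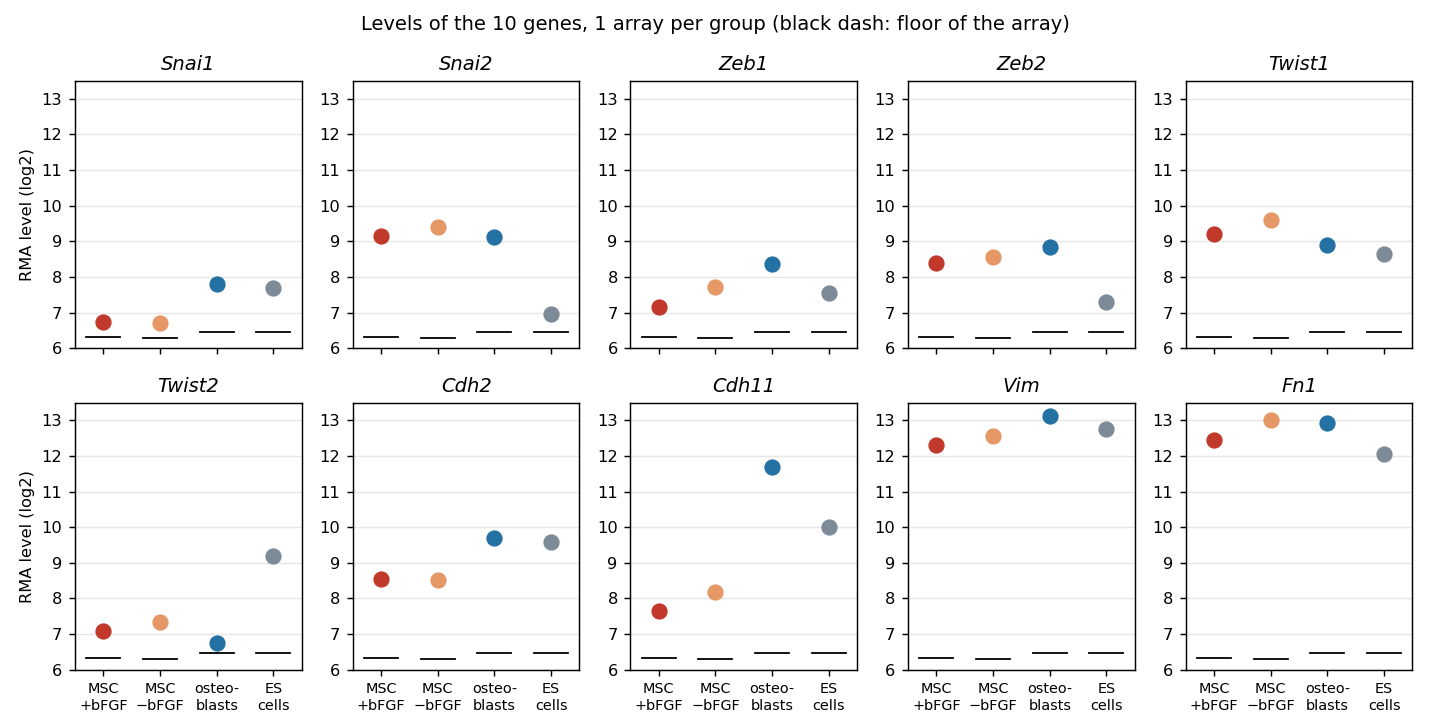
RMA level (log2, vertical axis) of each of the 10 genes, 1 panel per gene, on the arrays of MSC with bFGF, MSC without bFGF, osteoblasts and ES cells, with a black dash for the floor of each array. Points are single arrays with no error; Cdh11 spans 4.06, Twist2 2.44 and Snai2 2.42, while Vim spans 0.81.

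The cadherins were both lower in the MSC arrays than in either control. Cdh11, the cadherin typical of mesenchyme and bone, stood at 7.64 in MSC with bFGF, 8.18 in MSC without, 11.70 in osteoblasts and 10.00 in ES cells. Osteoblasts were highest, ES cells next and the MSC arrays lowest, and only the MSC arrays lay within the technical spread of each other. Cdh11 was 16.6-fold lower in MSC with bFGF and 11.5-fold lower in MSC without bFGF than in osteoblasts. Relative to ES cells it was 5.14-fold and 3.54-fold lower. A further 3 probe sets carry the Cdh11 symbol together with those of other genes and were not used.

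Cdh2, N-cadherin, stood at 8.56 in MSC with bFGF, 8.51 in MSC without, 9.70 in osteoblasts and 9.59 in ES cells. Both MSC arrays lay at least 1.03 below both controls, past the technical spread. Over all genes 9.71% and 13.3% were 2-fold or more lower in MSC with and without bFGF than in osteoblasts. Against ES cells the shares were 10.6% and 11.8%. The share of all genes lower against both controls in both MSC arrays was not counted. Within the MSC pair the difference was 0.05 and within the control pair 0.11. The profile of Cdh2 over the 4 arrays, each gene centred on its own mean, was nearest to that of Snai1, with a Euclidean distance of 0.094 that was the smallest of the 45 pairs of members. The largest, 4.18, was that of Snai2 and Cdh11. The next smallest were 0.37 for Zeb1 and Vim and 0.58 for Zeb2 and Fn1, and all such distances rest on 4 arrays.

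Vim, Fn1 and Twist1 varied least over the arrays, by 0.81, 0.94 and 0.96. Vim, which encodes the main intermediate filament of mesenchymal cells, stood at 12.30 in MSC with bFGF, 12.57 in MSC without, 13.11 in osteoblasts and 12.75 in ES cells. The 1 pair past the technical spread was MSC with bFGF minus osteoblasts, at -0.81. Fn1, the matrix glycoprotein that integrins bind and assemble into fibrils, stood at 12.46, 13.00, 12.94 and 12.07 in the same order. ES cells were lowest and MSC without bFGF highest, 1.91-fold apart, which was just past the technical spread. Neither gene reached 2-fold in any of the 6 comparisons, and macrophages and other cell types also express both.

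Between MSC with and without bFGF none of the 10 genes reached 2-fold. The count was 0 higher and 0 lower, against 4.09% higher and 0.467% lower of 10483 genes above the floor. The median of the 10 was -0.27, against 0.00 for all genes above the floor. Of the 10, 8 were below 0, while 49.4% of all genes above the floor were above 0. The lowest were Zeb1 at -0.56, Fn1 at -0.55 and Cdh11 at -0.54, with 3.63%, 4.06% and 4.23% of all genes lower. Twist1 differed by -0.39, and Snai2, Twist2 and Vim by -0.25 to -0.27. Snai1 and Cdh2 differed by 0.03 and 0.05, and the sign for Snai1 turned among the alternatives (-0.02 to 0.06). Only Zeb1 passed the technical spread, and narrowly (-0.563 against a limit of 0.561), with Fn1 and Cdh11 just inside it. A robust SD from the median disagreement of probe sets was 0.16 for this pair, against the SD of 0.28 used. Which members pass thus depends on the SD chosen. In the same pair of arrays 17 of 20 macrophage markers passed 2-fold upward with bFGF, and of 11 stromal markers 2 were higher and 3 lower; their part in these differences was not tested.

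Set against osteoblasts, both MSC arrays were lower for both cadherins and for Snai1, and for 0 members higher. In MSC with bFGF 0 of 10 were 2-fold or more higher and 4 lower, which were Cdh11 (-4.06), Zeb1 (-1.21), Cdh2 (-1.14) and Snai1 (-1.06); of 10798 genes above the floor 7.5% were higher and 9.71% lower. MSC without bFGF had 0 higher and 3 lower, which were Cdh11 (-3.52), Cdh2 (-1.19) and Snai1 (-1.09), against 8.17% and 13.3% of 10973 genes. Zeb1 differed by -0.65 there. Snai1 was not counted in either with the floor at the 75th percentile. Medians of the 10 were -0.65 and -0.41, against 0.09 for all genes in both comparisons. The 2 comparisons share the osteoblast array. Twist1 and Twist2 were above 0 in both, Twist1 by 0.31 and 0.70 and Twist2 by 0.32 and 0.59, within the technical spread. Macrophage markers had medians of -1.35 and -4.02 and stromal markers of -2.73 and -2.48 in the same comparisons, with 9 and 8 of 11 stromal markers 2-fold or more lower.

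Against ES cells the MSC arrays were higher for Snai2 and Zeb2 and lower for Twist2 and both cadherins. In MSC with bFGF 2 of 10 were 2-fold or more higher, Snai2 (2.17) and Zeb2 (1.11), and 3 lower, Cdh11 (-2.36), Twist2 (-2.11) and Cdh2 (-1.03). Of 10932 genes above the floor 11.3% were higher and 10.6% lower. The same genes were counted without bFGF, Snai2 (2.42) and Zeb2 (1.26) as higher and Twist2 (-1.85), Cdh11 (-1.82) and Cdh2 (-1.08) as lower, against 10.4% and 11.8% of 10977 genes. With differences centred on the median of all genes, or with a loess curve removed, Zeb2 in MSC with bFGF was at 0.99 or 0.95, under 2-fold. Just under 2-fold lay Snai1, at -0.96 and -0.98 (-1.07 and -1.08 after centring), and in MSC without bFGF Twist1 (0.96) and Fn1 (0.94). The comparisons share the ES array. In MSC with bFGF minus ES cells the stromal markers had a median of -1.21, with 0 of 11 higher and 5 lower at 2-fold, and the macrophage markers one of 2.06, with 14 of 20 higher and 2 lower. In MSC without bFGF minus ES cells the stromal median was -1.11, with 1 higher and 5 lower, and the macrophage median -0.46, with 0 higher and 6 lower. The part of these cells in the differences of the members was not tested.

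Osteoblasts minus ES cells gave 9 of 10 genes above 0, against 51.5% of all genes above the floor. Of the 10, 3 were 2-fold or more higher, Snai2 (2.14), Cdh11 (1.70) and Zeb2 (1.54), and 1 lower, Twist2 (-2.44), against 12.3% higher and 8.83% lower of 10927 genes above the floor. The median of the 10 was 0.58 and that of all genes 0.03. Fn1 and Zeb1 differed by 0.87 and 0.80, Vim and Twist1 by 0.37 and 0.26, and Snai1 and Cdh2 by 0.10 and 0.11. All of these lay within the technical spread. Macrophage and stromal markers had medians of 3.53 and 1.51 in this comparison.

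**Figure D2:**
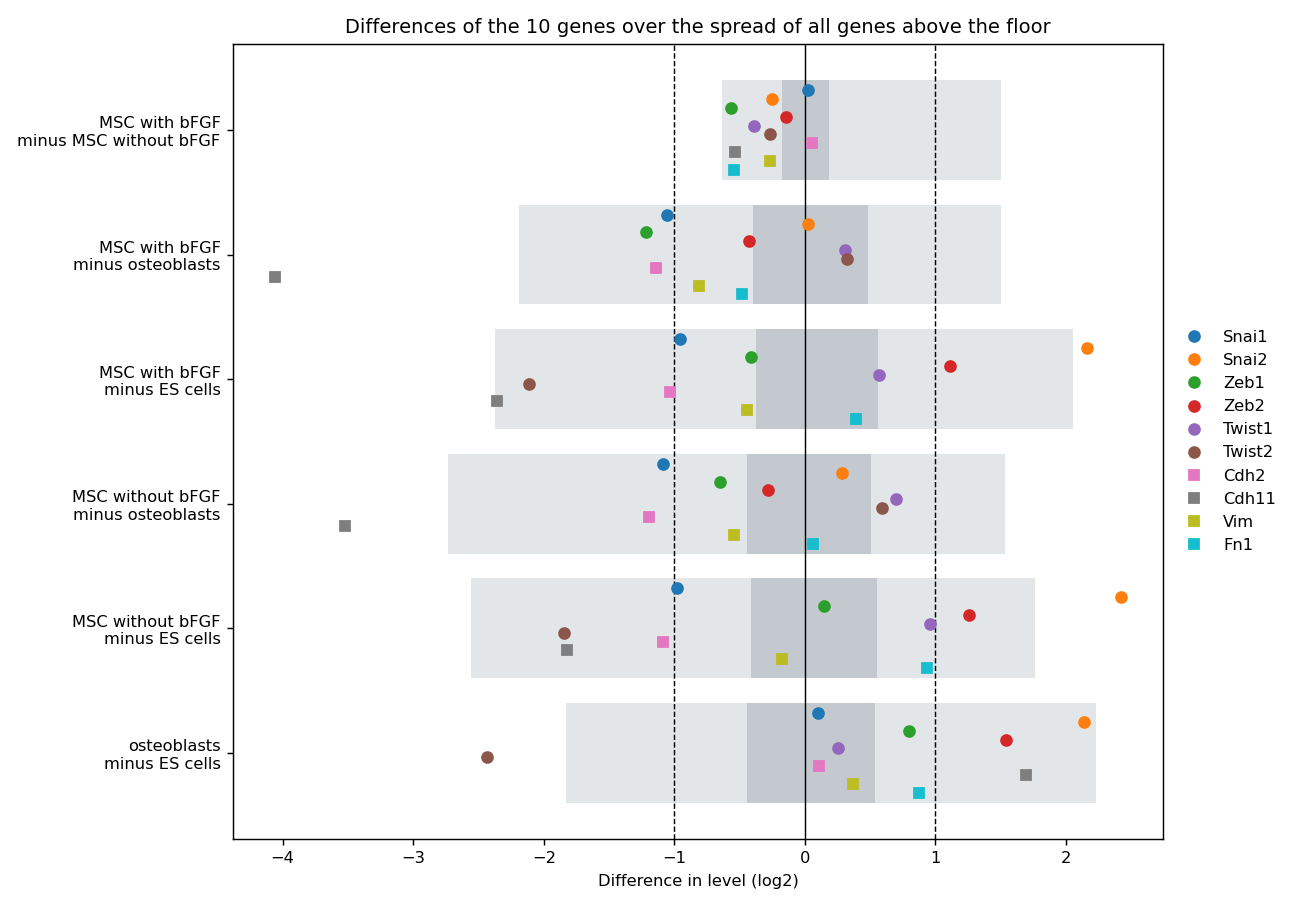
Difference in level (log2, horizontal axis) of the 10 genes in each of the 6 comparisons, circles for transcription factors and squares for the rest, over pale and dark bars that hold the central 95% and 50% of all genes above the floor; dashed lines mark 2-fold. Cdh11 lies left of the pale bar in both comparisons of MSC with osteoblasts, at -4.06 and -3.52, and Snai2 right of it in both comparisons of MSC with ES cells.

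Genes of nearest pattern were sought for the 7 members with a range of at least 1, by the Euclidean distance between log2 levels on the 4 arrays among 17066 genes. Nearest to Cdh2 was Fermt2 (kindlin-2, an integrin activator) at 0.18, followed by Ptms and the basement membrane gene Nid1 at 0.33 and 0.34. Nearest to Zeb1 were the insulin receptor substrate Irs1 (0.19), the collagen Col16a1 (0.26) and the cell cycle factor E2f1 (0.33). Nearest to Zeb2 were Tmx4 (0.14), Frrs1 and Mfsd11 (both 0.30), and to Snai1 Bmyc (0.19), Tnfrsf21 (0.20) and Rhox6 (0.22). For Twist2 they were the fatty acid elongase Elovl6 (0.21), Rbpms2 (0.38) and the Polycomb gene Phc1 (0.43). For Snai2 they were Nupr1 (0.49), Pold4 (0.51) and the glucocorticoid receptor Nr3c1 (0.57), and for Cdh11 Igfbp4 (0.58), Fstl1 (0.67) and Apoe (0.86), so these 2 members had the least close neighbours. Over 4 arrays such distances are a description only.

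The epithelial genes that EMT factors are known to repress had signal mainly in ES cells. Of 20 such genes 3 lay above the floor in MSC with bFGF, 4 in MSC without and 5 in osteoblasts, against 13 in ES cells. Cdh1, E-cadherin, stood at 5.95 in MSC with bFGF, 5.99 in MSC without, 6.09 in osteoblasts and 10.01 in ES cells. The ES array was high and the other 3 were under the floor. In MSC with bFGF, MSC without bFGF and osteoblasts 9, 10 and 10 of the 20 were 2-fold or more lower than in ES cells. In each comparison 0 were higher and 13 of the 20 lay above the floor. The medians were -1.21, -2.00 and -1.65. Over all genes above the floor 10.6%, 11.8% and 8.83% were lower in the same comparisons. Epcam, an epithelial adhesion protein, differed by -4.41, -4.44 and -4.40, Cldn6 by -5.29, -5.19 and -4.64, Krt18 by -4.54, -4.04 and -4.49 and Krt19 by -4.61, -4.16 and -3.43. The lower levels were under the floor, so these sizes depend on background. Between the MSC arrays the membrane protease gene St14 was the 1 gene of the 20 past 2-fold. It stood at 7.77 with bFGF against 5.94, under the floor, in its absence. Over all genes 4.09% were higher there.

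Factors that keep cells epithelial followed the same split. Of 14, only Klf5 lay above the floor in MSC with bFGF, MSC without bFGF and osteoblasts, against 6 of them in ES cells. The splicing factor Esrp1, which sets epithelial isoforms, differed by -3.65, -3.66 and -3.47 in MSC with bFGF, MSC without bFGF and osteoblasts minus ES cells, and Tfap2c by -3.38, -3.20 and -3.18. These 2 genes were under the floor outside ES cells, so the sizes depend on background. In all, 4, 5 and 6 of the 14 were 2-fold or more lower than in ES cells and 0 higher. In each comparison 6 of the 14 lay above the floor, and over all genes 10.6%, 11.8% and 8.83% were lower. Klf5 stood at 8.62 in MSC with bFGF, 8.29 in MSC without, 6.56 in osteoblasts and 9.12 in ES cells, low in osteoblasts only. The ES array had Cdh1, Epcam and Esrp1 above the floor beside all 10 members. It also had 10 of 11 stromal markers above the floor, with Col1a1 at 10.92. Whether the same cells carried the epithelial and the mesenchymal transcripts was not tested.

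**Figure D3:**
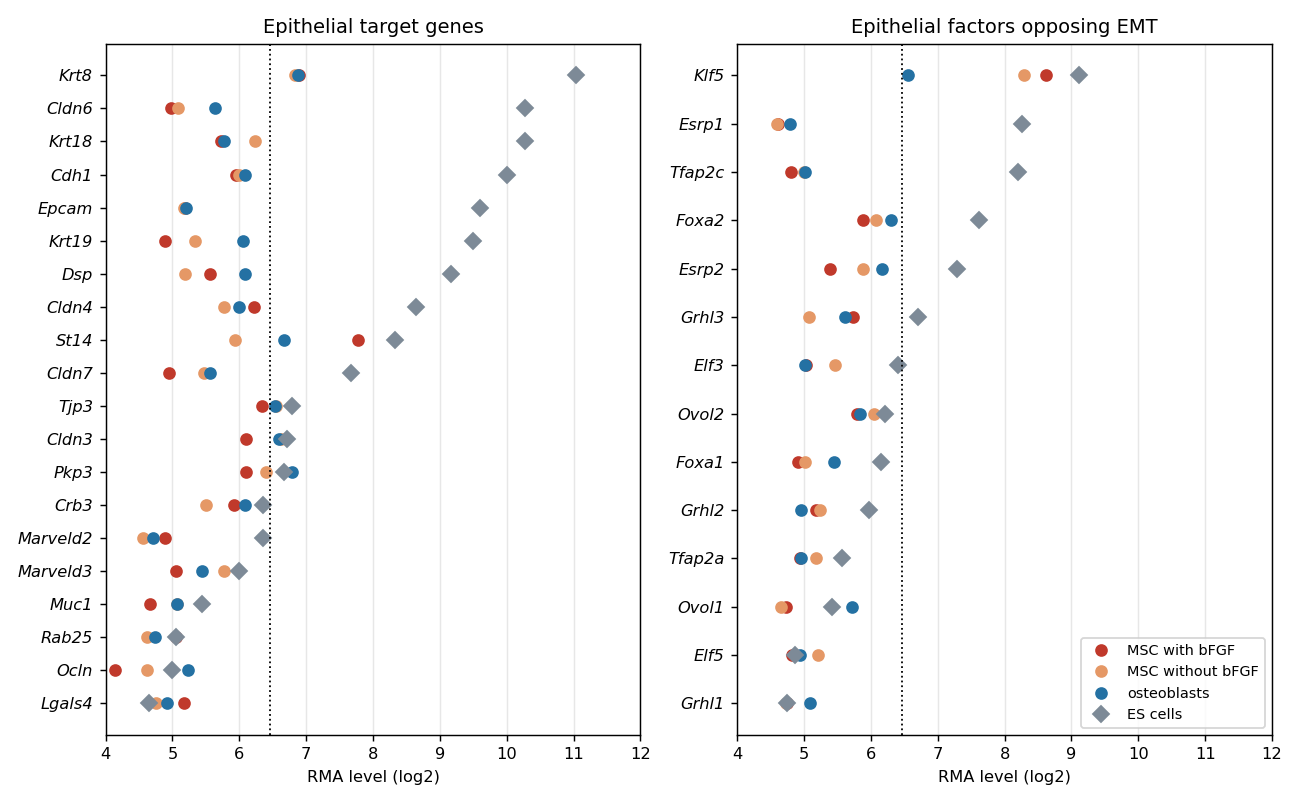
RMA level (log2, horizontal axis) of 20 epithelial target genes of EMT factors (left) and 14 factors that oppose EMT (right) on the 4 arrays, with a dotted line at the floor of the ES array (6.46). Grey diamonds, ES cells, lie right of the other arrays for Cdh1, Epcam, Cldn6, Krt8 and Esrp1, and Klf5 has high points for both MSC arrays too.

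Of 20 cofactors and partners of the members, 18 above the floor, 1 passed 2-fold upward with bFGF and 0 downward, close to the shares over all genes of 4.09% and 0.467%. That gene was Id2, an inhibitor of helix-loop-helix factors such as the E proteins that Twist binds, at 10.14 in MSC with bFGF, 8.39 in MSC without, 10.40 in osteoblasts and 8.16 in ES cells. Id2 was thus high in the arrays with the higher macrophage marker medians, 9.51 and 11.20, and low in those with 6.54 and 7.40; the part of those cells was not tested. Id3, of the same family, stood at 6.98, 6.49, 9.33 and 8.86, low in both MSC arrays. The E proteins Tcf3, Tcf4 and Tcf12 did not reach 2-fold in any comparison.

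Of 17 other transcription factors linked to EMT, 14 of them above the floor, 0 were higher and 1 lower between the MSC arrays. Over all genes 4.09% were higher and 0.467% lower. The gene was Prrx2, at 5.80 with bFGF, under the floor, against 6.80 without, only just 2-fold apart. Of the 17, those under the floor included, 13 were below 0, while 49.4% of all genes above the floor were above 0. The 2 counts are thus not alike, and the median of all genes was -0.06 with no floor and -0.004 above it. Against osteoblasts 1 of the 17 was 2-fold or more higher and 2 lower with bFGF, and 1 higher and 1 lower without. Over all genes 7.5% were higher and 9.71% lower with bFGF, and 8.17% and 13.3% without. Hmga2, a chromatin protein of growing tissues, was higher than in osteoblasts by 2.01 with bFGF and by 2.04 without. Prrx2, a homeobox factor of skull and limb mesenchyme, differed by -2.52 and -1.52 in the same comparisons and Prrx1 by -1.72 and -0.94. Against ES cells 0 of the 17 were 2-fold or more higher and 5 lower with bFGF, and 2 higher and 3 lower without. In each comparison 15 of the 17 lay above the floor. Over all genes 11.3% were higher and 10.6% lower with bFGF, and 10.4% and 11.8% without. The 2 higher ones were Sox9 (1.59) and Foxc2 (1.32), the latter under the floor in ES cells. The gastrulation factor Gsc differed by -2.49 and -2.77 and Foxq1 by -3.29 and -2.85, MSC with bFGF first. Gsc without bFGF and Foxq1 with bFGF lay under the floor.

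The TGF-beta pathway, the main signal known to induce Snail and Zeb genes, had 0 of 19 genes at 2-fold between the MSC arrays, where 4.09% of all genes were higher and 0.467% lower. Against osteoblasts 5 of 19 were lower in each MSC array and 0 higher, beside 9.71% lower over all genes with bFGF and 13.3% without, and the list medians were -0.76 with bFGF and -0.50 without. The ligand Tgfb3 differed by -3.09 and -2.90 and the receptor Tgfbr1 by -1.57 and -1.95. The activin subunit Inhba differed by -1.74 and -2.00. The ligand Tgfb1, which macrophages also make, stood at 8.79 in MSC with bFGF, 7.91 in MSC without, 9.60 in osteoblasts and 9.01 in ES cells.

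Few of the other cadherins listed had signal. Of 18, the number above the floor was 0 in MSC with bFGF, 1 in MSC without, 2 in osteoblasts and 5 in ES cells, against both Cdh2 and Cdh11 in every array. Against osteoblasts, in the order MSC with and MSC without bFGF, Cdh10 differed by -2.52 and -2.34 and the epithelial cadherin Cdh3 by -1.85 and -1.44. Both lay under the floor in both MSC arrays, so these sizes depend on background. Among 15 catenins and other cadherin partners 3 and 4 were 2-fold or more lower in MSC with and without bFGF than in osteoblasts and 0 higher; 12 of the 15 lay above the floor, and 9.71% and 13.3% of all genes were lower. Vinculin (Vcl) differed by -2.28 and -2.29 and p120-catenin (Ctnnd1), which holds cadherins at the membrane, by -1.33 and -1.44. Beta-catenin (Ctnnb1) did not reach 2-fold in any comparison. Between the MSC arrays 1 of the 15, with 12 above the floor, was 2-fold or more higher with bFGF and 0 lower. Over all genes 4.09% were higher and 0.467% lower. The gene was plakoglobin (Jup), a junction protein, at 7.03 in MSC with bFGF and at 5.84, under the floor, in MSC without. Its difference of 1.18 thus depends on background.

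Of 17 receptors and assembly factors of fibronectin, 16 of them above the floor, 8 were 2-fold or more lower and 1 higher than in osteoblasts in each MSC array, where Fn1 itself lay within the technical spread. Over all genes 9.71% were lower in MSC with bFGF and 13.3% in MSC without. Transglutaminase 2 (Tgm2) differed by -2.65 and -2.68 and the integrin chain Itga4 by -2.10 and -2.71, with bFGF first. Itga8 differed by -2.95 and -2.30 and Fbln1 by -2.32 and -2.22. All of these lay under the floor in both MSC arrays, so the sizes depend on background. Itgb8 was the gene higher in both, by 1.52 and 2.69, and lay under the floor in osteoblasts at 5.47. The main fibronectin receptor chains Itga5 and Itgb1 did not reach 2-fold against osteoblasts in either array. Among 11 intermediate filament genes related to or bound by Vim, 5 lay above the floor between the MSC arrays. Of the 11, 1 was 2-fold or more higher with bFGF and 0 lower, and the list median was 0.05. Over all genes 4.09% were higher and 0.467% lower. The gene was Nes, at 7.26 with bFGF and at 5.26, under the floor, without, so the difference of 2.01 depends on background.

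**Figure D4:**
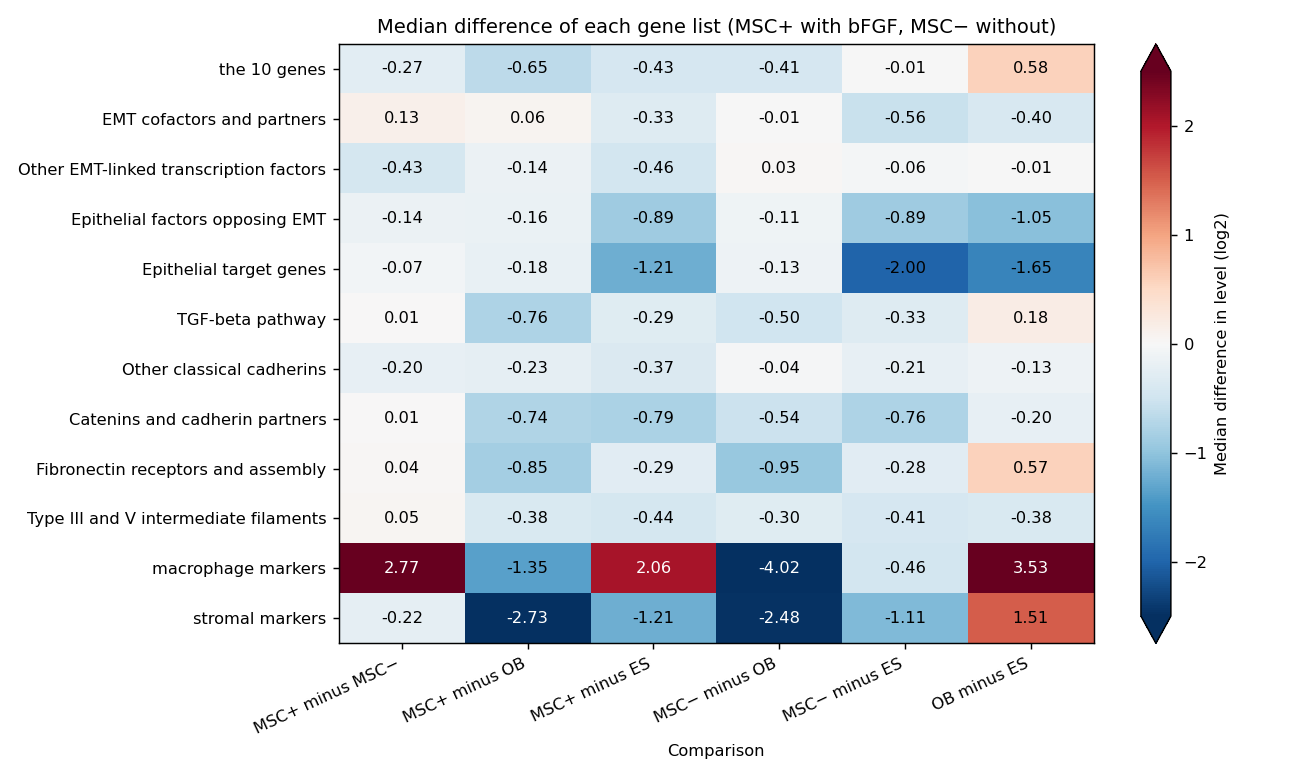
Median difference in level (log2, colour and number) of the 10 genes and of each companion list (rows) in the 6 comparisons (columns; MSC+ with bFGF, MSC− without, OB osteoblasts, ES embryonic stem cells). The 10 genes run from -0.65 in MSC with bFGF minus osteoblasts to 0.58 in osteoblasts minus ES cells, and the macrophage and stromal rows show what moved beside them.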

How the data were processed

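The deposited table held 1 log2 level for each of 35556 probe sets on each of 4 arrays, made by the authors with Affymetrix Expression Console and RMA, per the submitters' processing notes; the log2 scale was inferred from the values (1.40 to 14.28). No source used here gives the software versions or the build. The platform table gave 21789 probe sets 1 symbol, 1621 several and 12146 none; those with 1 symbol were used. Updating through Entrez identifiers, matched for 21698, changed 0 symbols. Each of 19938 genes took its probe set with the highest mean. No test was possible with 1 array per group, and the number of arrays limits the precision. The counting was tested on simulated data.

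Members and lists were chosen with earlier results of these data known. The text names all members, up to 4 genes each way of a list among those at 2-fold, and the 3 nearest patterns; values for other named genes (Cdh1 in all arrays, Klf5, Tgfb1, Jup, Col1a1, Sp7, Ibsp, E proteins, Itga5, Itgb1, Ctnnb1) were chosen after they were seen. The 8 alternatives changed the probe set rule, floor, threshold or scaling. Promoter sequences are from RefSeq (GRCm38.p6); no coordinates of the array's genes were used. Software was Python 3.11.15, numpy 2.4.6, pandas 2.3.3 and statsmodels 0.14.6.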

Additional observations from a re-analysis of the deposited data

How the results depend on the processing

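No paired analysis was possible because each group has 1 array and the labels number no replicates. Of 96 counts of members under 8 alternatives, 85 lay within 1.5 times the reported count and 11 did not. At 4-fold the count of lower members was 1 for MSC with bFGF minus osteoblasts, 1 for MSC without bFGF minus osteoblasts and 0 for MSC without bFGF minus ES cells, and that of higher members was 1 for MSC with bFGF minus ES cells, 1 for MSC without bFGF minus ES cells and 1 for osteoblasts minus ES cells. At 1.5-fold the higher members numbered 2 for MSC without bFGF minus osteoblasts, 4 for MSC without bFGF minus ES cells and 5 for osteoblasts minus ES cells. Centring on the median, or removing a loess curve (span 0.3), left 1 higher member in MSC with bFGF minus ES cells, Zeb2 falling under 2-fold, and brought Snai1 past 2-fold lower in both MSC arrays minus ES cells. The median of all genes above the floor was 0.12 in that comparison, the shift that centring removes. The mean of probe sets, which leaves the members' own values as they are since each has 1 probe set, no floor, a floor at the 75th percentile and repeated quantile normalization kept all 12 counts within 1.5 times. No member difference moved under centring, loess removal or repeated quantile normalization by more than 1 SD of the disagreement between probe sets, and none of those counted at 2-fold changed sign. Of 60 differences 3 changed sign, all of them small: Snai1 in MSC with minus without bFGF (-0.02 to 0.06), Snai2 in MSC with bFGF minus osteoblasts (-0.13 to 0.03) and Fn1 in MSC without bFGF minus osteoblasts (-0.03 to 0.11). Snai1, Cdh2 and Zeb2 lie close to the 2-fold limit, and spread between cultures was not measured.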
